A study of Mus musculus with 30 samples.

Results

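A set of 10 genes of bone morphogenetic protein (BMP) and activin signalling was followed: the ligand genes Bmp2, Bmp4 and Inhba, the antagonist gene Grem1, the pseudoreceptor gene Bambi, the inhibitory SMAD genes Smad6 and Smad7, and Id1, Id2 and Id3. They were taken by name and found by matching Ensembl identifiers to symbols. All 10 were among the 51486 identifiers with a symbol, of 78334 in the table. RNA came from 30 libraries of cultured cells labelled as aortic smooth muscle cells of the mouse, in 9 groups and 2 sequencing runs, made to study CASC15, a long noncoding RNA. The growth protocol speaks of cells of mouse and rat, and only mouse is given for these libraries. Every culture was starved of serum for 48 h and transfected for at least 24 h, so that the controls too carried an oligonucleotide or a plasmid at 1 µg/ml. In run 2, no culture had a ligand added. It held 2 libraries with a control GapmeR (an antisense oligonucleotide that directs cleavage of its RNA target), 2 labelled as knockdown of total CASC15, 3 with a control plasmid and 3 with overexpression of total CASC15. Run 3 held 4 libraries in each of 5 groups. Control cells were left untreated, given angiotensin II at 10 ng/ml or given the growth factor PDGF-BB at 10 to 30 ng/ml, and cells with knockdown of long CASC15 were left untreated or given angiotensin II, each treatment for 24 h. What separates "long" from "total" CASC15 is not stated in the labels. The titles of knockdown and overexpression libraries count the number in the gene name upward, as far as CASC22, and groups were taken from the library names, which carry tCAS or lCAS throughout. A batch label, P16 to P19, runs with the replicate number, and what a batch is (separate cultures or animals, for example) is not stated, so p-values measure the spread between these libraries.

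BMP ligands bind pairs of receptor kinases that phosphorylate SMAD1, SMAD5 and SMAD9, which enter the nucleus with SMAD4 and switch on target genes. The ID genes are classical direct targets: their proteins lack a DNA-binding region and hold E proteins off DNA, which keeps many cells from differentiating. Smad6, Smad7 and Bambi are targets too and act as brakes on the same pathway, while gremlin, the product of Grem1, binds BMP2 and BMP4 outside the cell. In the artery wall, BMP signalling bears on smooth muscle growth and on the contractile state, and loss of BMPR2 function is a known cause of pulmonary arterial hypertension.

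Total counts per library were 18007184 to 21881948 in run 2 and 15771489 to 30362053 in run 3. Levels are given in CPM, counts per 1000000 counts of a library after TMM scaling, and spreads are SD. The target, read from 2610307P16Rik as the mouse CASC15 gene, was lower with long knockdown in all 4 batches, at log2 ratios of -1.44 to -0.493 in untreated cells and -1.01 to -0.264 under angiotensin II, where P19 was nearest to 0. It was also lower in control cells given PDGF-BB, at -0.822 to -0.31. In the libraries labelled total knockdown it was not lower (log2 ratios 0.34 and 0.374), and it was far higher in the overexpression libraries (6.1 to 7.25). The smooth muscle label was only partly borne out by defining markers. Acta2 was at 109 to 254 CPM and Smtn at 46.7 to 95.5 CPM (group means), but Myh11 reached at most 5.49, Tagln 3.25 and Cnn1 0.162 CPM, while of 5 fibroblast markers Dcn (664 to 1900 CPM) and Col1a1 (1380 to 3020 CPM) were abundant, Pdgfra was at 3.1 to 47.4 CPM, and Lum (at most 3.83 CPM) and Dpt (at most 0.487 CPM) were low. Of 6 endothelial markers Vwf reached 4.82 CPM and Pecam1 2.64 CPM, the others at most 0.442 CPM, and Cdh5 0.0224 CPM. In run 3 the epithelial cadherin Cdh1 was at 113 ± 12.4 CPM in untreated controls, 46.2 ± 15.5 in untreated long knockdown and 174 ± 16.7 under PDGF-BB. Batch P19 stood apart for several genes. Its untreated run 3 libraries also held more of the proliferation marker Mki67, at 48.8 CPM against 14.5 to 24.1 CPM in the other untreated controls, and at 31.5 against 1.68 to 3.56 CPM in untreated long knockdown. In bulk RNA, fewer cells with a transcript cannot be told apart from less of it per cell.

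CPM per kilobase of exon (kb) allowed genes to be ranked against each other. In untreated controls of run 3 (n = 4), Id3 was the most abundant of the 10 per length at 98.1 ± 10.2 CPM per kb, followed by Bmp4 at 77.1 ± 2.09, Id1 at 61.6 ± 5.33, Inhba at 48.1 ± 5.11 and Id2 at 31.8 ± 3.05. Smad7 (24.7 ± 5.45) and Smad6 (14.3 ± 0.84) were lower. The antagonists were scarce, with Grem1 at 2.14 ± 0.647 and Bambi at 0.59 ± 0.0525 CPM per kb. Bmp2 was near the limit of detection at 0.0906 ± 0.0425 CPM per kb, with 5 to 10 counts per library. Bmp4 was thus the main BMP ligand of the pair in these cultures, at 173 against 0.322 CPM. In the antisense controls of run 2 (n = 2) the order of the leading genes was Bmp4 (39.7 ± 4.91), Id3 (39.1 ± 1.04), Id1 (30.8 ± 0.275) and Id2 (22 ± 5.23 CPM per kb), where Bmp4 and Id3 differed by less than their spread. Runs and their cultures cannot be told apart, so levels were tested within a run only.

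**Figure D1:**
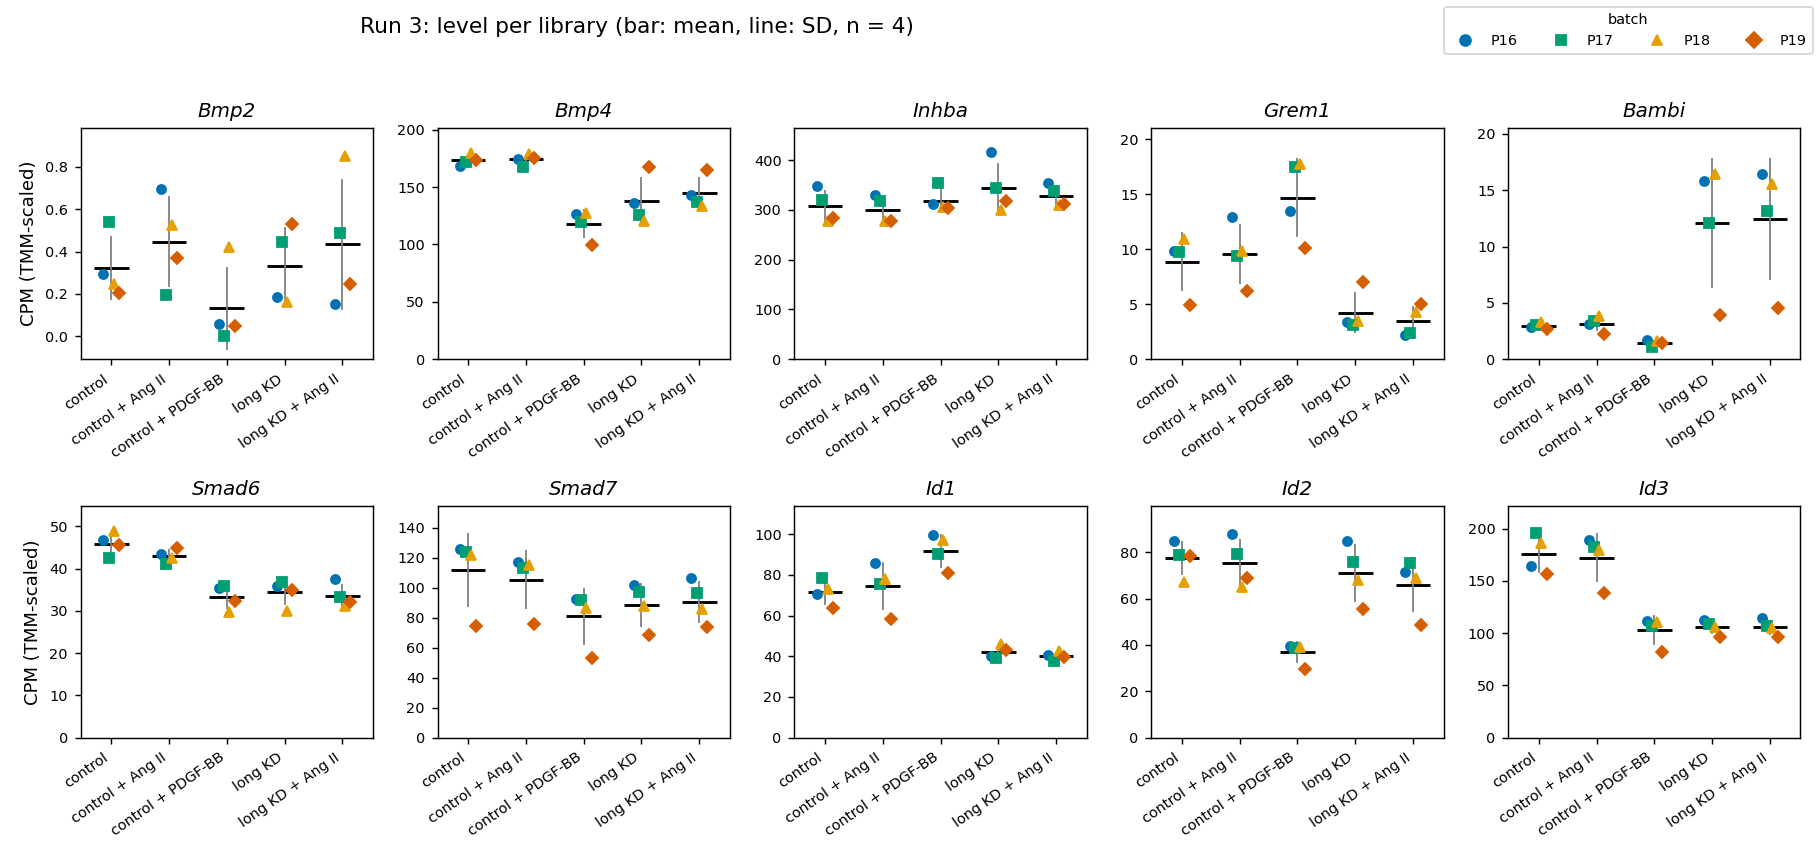
Level of each of the 10 genes in the 20 libraries of run 3, in TMM-scaled CPM on a linear axis for each gene. Points are libraries coloured by batch, horizontal bars group means and vertical lines SD (n = 4). Id1 and Id3 sit lower in both long knockdown groups than in their controls, Bambi sits higher, and the P19 point departs from its group for Grem1, Bambi and Smad7.

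Knockdown of long CASC15 was compared with the control GapmeR in untreated cells of run 3. Of the 10 genes, 6 passed the test: Id1, Id3, Smad6, Bmp4 and Grem1 fell and Bambi rose. Among all 15103 genes tested, 25.0% were called (adjusted p under 0.05 in the quasi-likelihood test of edgeR, Benjamini-Hochberg method over all genes). Without P19, 7 of the 10 passed, where 40.0% of all genes were called. The median log2 fold change was -0.332 over the 10 genes and 0.0155 over all genes. Alongside, Mki67 was lower in the knockdown of all 4 batches (log2 ratios -3.65 to -0.628), and both epithelial markers tested fell (summed level of 4 markers 36.6 to 69.9 CPM against 97.6 to 129 CPM, with Epcam at most 0.187 CPM in any group mean). Of 7 smooth muscle markers tested, 2 rose and 1 fell (summed level 231 to 329.4 CPM against 241.5 to 275.8 CPM), and of 4 fibroblast markers 2 rose and 1 fell (3150 to 3553 CPM against 3414 to 3890 CPM). Of 2 endothelial markers tested 1 rose, Vwf (summed level of 6 markers 1.96 to 3.88 CPM against 1.25 to 2.76 CPM, with Cdh5 near 0). The part of these shifts in the changes of the 10 genes was not tested.

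Of the ID genes, Id1 and Id3 fell and Id2 did not pass. Id1, an inhibitor of E proteins, was at 70.5, 78.5, 73.3 and 63.7 CPM in the controls of P16 to P19 and at 40.4, 39.4, 46.2 and 43 CPM in the knockdown. All 4 knockdown libraries were below all controls, at 59.1% of the control level (log2 fold change -0.76, SE 0.0975, edgeR adjusted p = 1.01e-05). Id3 was at 164, 196, 186 and 157 CPM in controls and at 113, 109, 106 and 96.3 CPM in the knockdown. The groups did not overlap, and Id3 fell to 60.4% of the control level (log2 fold change -0.73, SE 0.104, edgeR adjusted p = 3.33e-05). Id2 was at 85.1, 79, 67.3 and 78.6 CPM in controls and at 84.8, 75.8, 68 and 55.5 CPM in the knockdown. Its groups overlapped, and its change did not pass the test (log2 fold change -0.13, SE 0.142, edgeR adjusted p = 0.553). In 3 of 4 batches the Id2 level of knockdown and control differed by at most 0.0599 on the log2 scale, and in P19 the log2 ratio was -0.503, beside -0.564 for Id1 and -0.703 for Id3.

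Among the brakes of the pathway, Smad6, whose protein blocks SMAD1 and SMAD5, was at 46.8, 42.4, 48.8 and 45.5 CPM in controls and at 35.8, 36.9, 30 and 34.8 CPM in the knockdown. No library of one group reached the other, and Smad6 fell to 74.9% of the control level (log2 fold change -0.42, SE 0.0788, edgeR adjusted p = 0.000571). Smad7, whose protein blocks both the BMP and the TGF-beta branch, was at 126, 124, 122 and 74.8 CPM in controls and at 102, 97.2, 87.6 and 68.3 CPM in the knockdown. It was lower in the knockdown of each of the 4 batches, but its P19 control was below 3 of the knockdown libraries. The change did not pass the test without a term for batch (log2 fold change -0.33, SE 0.2, edgeR adjusted p = 0.244), and passed with the batch as a block (-0.32, edgeR adjusted p = 0.000201).

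Bambi encodes a receptor-like protein without a kinase domain. It was at 2.9, 3.03, 3.34 and 2.71 CPM in controls and at 15.8, 12.1, 16.5 and 3.93 CPM in the knockdown. All knockdown libraries were above all controls, with P19 nearest to them. Bambi rose 4.04-fold (log2 fold change 2.01, SE 0.378, edgeR adjusted p = 0.000669), and by 2.25 on the log2 scale without P19 (edgeR adjusted p = 3.09e-11).

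Grem1 encodes gremlin, a secreted antagonist of BMP2, BMP4 and BMP7. It was at 9.83, 9.8, 11 and 4.94 CPM in controls and at 3.36, 3.12, 3.48 and 7 CPM in the knockdown. In P16, P17 and P18 the knockdown was lower, at log2 ratios of -1.63 to -1.52, while in P19 it was higher, at 0.494, so that the groups overlapped. Over all batches Grem1 fell to 48% of the control level (log2 fold change -1.06, SE 0.323, edgeR adjusted p = 0.0208), and without P19 the log2 fold change was -1.62 (edgeR adjusted p = 1.56e-07). The call was lost when the control of P18 or the knockdown library of P16, P17 or P18 was left out (log2 fold change -0.98 to -0.94, edgeR adjusted p = 0.0567 to 0.071).

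Of the ligand genes, Bmp4 was at 168, 172, 179 and 174 CPM in controls and at 136, 126, 121 and 167 CPM in the knockdown. The groups did not overlap, though the P19 knockdown came close to the lowest control. Bmp4 fell to 79.4% of the control level (log2 fold change -0.33, SE 0.0914, edgeR adjusted p = 0.0107). An antisense gene, Gm15217, overlaps exons of Bmp4 in the GENCODE annotation, and reads of both cannot be told apart if counting ignored strand. Inhba, which encodes the activin A subunit, was at 348, 319, 278 and 283 CPM in controls and at 416, 344, 301 and 317 CPM in the knockdown. It was slightly higher in the knockdown of every batch, by 0.11 to 0.257 on the log2 scale, and the groups overlapped. The change passed the test only with the batch as a block (log2 fold change 0.16, edgeR adjusted p = 0.0157, against 0.217 without it). Bmp2 had 3 to 10 counts in each of these 8 libraries, and no difference was detectable at this depth (log2 fold change 0.07, SE 0.677, edgeR adjusted p = 0.956).

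**Figure D2:**
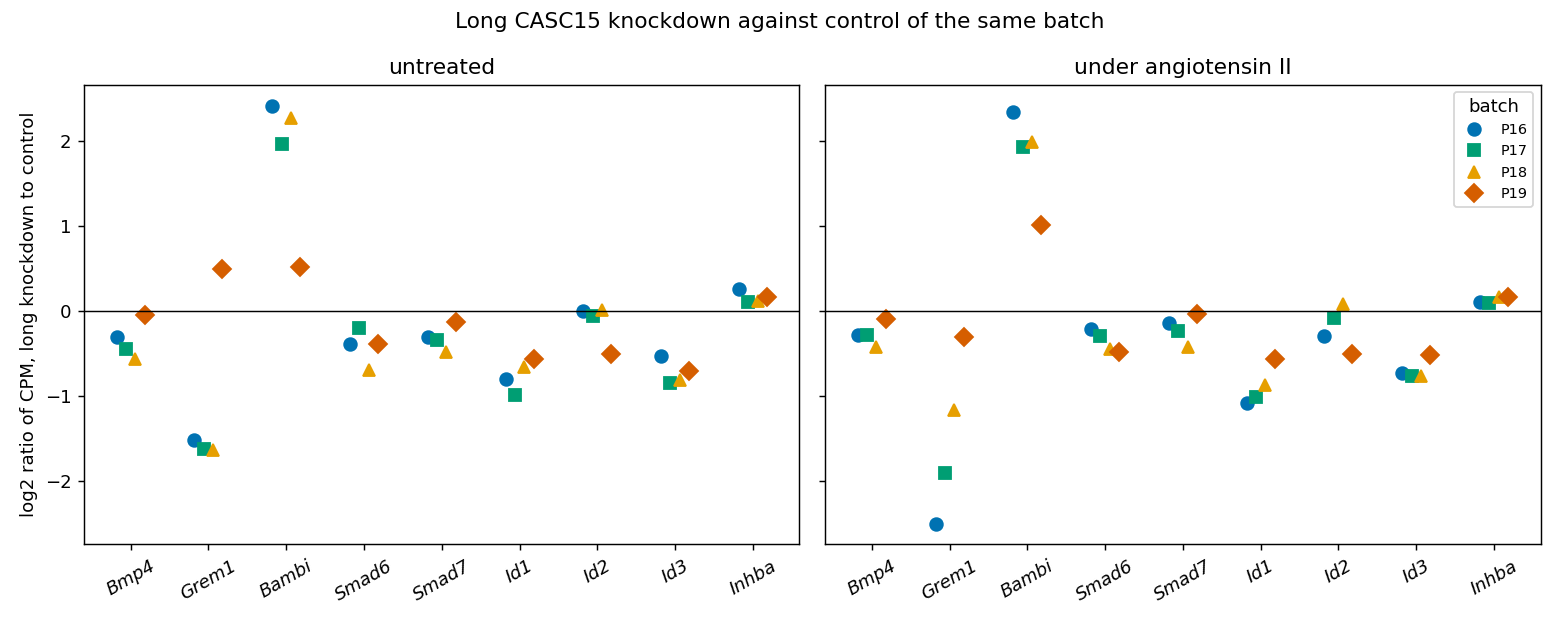
Log2 ratio of long knockdown to control CPM within each batch, in untreated cells (left) and under angiotensin II (right), for the 9 genes other than Bmp2, with a pseudocount of 0.1 CPM. Id1, Id3 and Smad6 lie below 0 in all 4 batches of both panels, and the untreated Grem1 ratio is 0.494 in P19 against -1.63 to -1.52 in the other batches.

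The promoters of Id3, Smad6, Grem1 and Bmp4 are shown because these genes fell together. They run from 250 bases before to 50 after the RefSeq start site, in build GRCm38.p6, at chr4:136143572-136143871 (plus strand), chr9:64022010-64022309 (minus strand), chr2:113758599-113758898 (minus strand) and chr14:46390620-46390919 (minus strand), and each is written 5′ to 3′ on the strand of its gene. Capitals mark matches on either strand to GGCGCC, a GC-rich element bound by SMAD1 and SMAD5, to CAGAC, the SMAD4 box, and to GTCTAGAC, a palindrome of SMAD boxes that was added to the search after the sequences had been read.
Id3: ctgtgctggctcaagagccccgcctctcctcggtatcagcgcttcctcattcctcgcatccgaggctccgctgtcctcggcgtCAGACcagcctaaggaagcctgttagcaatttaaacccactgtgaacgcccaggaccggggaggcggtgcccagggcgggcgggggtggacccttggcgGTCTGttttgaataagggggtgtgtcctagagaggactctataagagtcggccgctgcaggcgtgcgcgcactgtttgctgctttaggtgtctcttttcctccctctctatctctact
Smad6: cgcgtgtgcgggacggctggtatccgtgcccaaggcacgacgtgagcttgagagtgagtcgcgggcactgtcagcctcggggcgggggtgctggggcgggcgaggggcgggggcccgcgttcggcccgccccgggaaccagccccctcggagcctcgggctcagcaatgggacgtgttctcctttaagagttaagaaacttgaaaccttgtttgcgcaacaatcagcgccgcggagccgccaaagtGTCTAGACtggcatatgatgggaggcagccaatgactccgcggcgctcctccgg
Grem1: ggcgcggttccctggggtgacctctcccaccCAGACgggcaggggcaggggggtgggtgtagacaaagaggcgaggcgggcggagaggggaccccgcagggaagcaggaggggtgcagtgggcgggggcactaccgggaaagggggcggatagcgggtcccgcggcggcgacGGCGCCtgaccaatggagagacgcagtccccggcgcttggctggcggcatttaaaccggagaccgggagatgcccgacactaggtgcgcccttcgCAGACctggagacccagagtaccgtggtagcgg
Bmp4: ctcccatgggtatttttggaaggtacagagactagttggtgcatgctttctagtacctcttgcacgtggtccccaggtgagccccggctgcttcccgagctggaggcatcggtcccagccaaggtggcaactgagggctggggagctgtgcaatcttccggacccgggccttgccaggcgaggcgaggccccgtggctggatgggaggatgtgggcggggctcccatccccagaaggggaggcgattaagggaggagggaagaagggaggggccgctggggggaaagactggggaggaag
Id3 held CAGAC matches starting at -167 and -68 relative to the start site, and Grem1 at -219 and 18, beside a GGCGCC at -78. Smad6 held GTCTAGAC at -4, across the start site. Bmp4 held none of the motifs in this window. CAGAC occurs in 49.6% of the 32851 promoters of the same length in the table, GGCGCC in 11.9% and GTCTAGAC in 0.213%. Of the 10 genes, 6 had a promoter in the table. Among the other 2, Id2 held a GGCGCC at -231 and Inhba none of the motifs. A match describes these letters and is no evidence of binding.

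Under angiotensin II, the same comparison of long knockdown with control was made in other libraries of the same batches, and 26.7% of all genes were called. The same 6 of the 10 genes passed, in the same directions, with a median log2 fold change of -0.244 over the 10 genes and 0.0144 over all genes. Mki67 was again lower in the knockdown of all 4 batches (log2 ratios -3.79 to -1), both epithelial markers tested fell (summed level 35.4 to 64.5 CPM against 103.5 to 128 CPM) and 1 of 2 endothelial markers rose (2.29 to 4.21 CPM against 0.925 to 2.28 CPM). Of 7 smooth muscle markers 2 rose and 1 fell (253.6 to 335.9 CPM against 246 to 289.3 CPM), and of 4 fibroblast markers 1 rose and 1 fell (3049 to 3597 CPM against 3560.0 to 3856 CPM). Their part in the changes was not tested. Id1 was at 86.1, 75.6, 78 and 58.5 CPM in controls of P16 to P19 and at 40.7, 37.6, 42.6 and 39.5 CPM in the knockdown, and fell to 53.8% (log2 fold change -0.90, SE 0.098, edgeR adjusted p = 1.33e-06). Id3 was at 189, 183, 180 and 138 CPM in controls and at 114, 107, 105 and 96.6 CPM in the knockdown, and fell to 61.3% (log2 fold change -0.71, SE 0.104, edgeR adjusted p = 4.72e-05). Neither gene's groups overlapped.

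Bambi was at 3.16, 3.38, 3.85 and 2.22 CPM in these controls and at 16.4, 13.2, 15.5 and 4.58 CPM in the knockdown. Again P19 rose least, and over all batches Bambi rose 3.92-fold (log2 fold change 1.97, SE 0.383, edgeR adjusted p = 0.00086). Grem1 was at 12.9, 9.41, 9.81 and 6.17 CPM in controls and at 2.21, 2.43, 4.29 and 4.98 CPM in the knockdown. Here every knockdown library was below every control, also in P19, and Grem1 fell to 36.5% (log2 fold change -1.46, SE 0.329, edgeR adjusted p = 0.00295). Smad6 fell to 78% of the control level (log2 fold change -0.36, SE 0.0793, edgeR adjusted p = 0.00219). Bmp4 fell to 83% (log2 fold change -0.27, SE 0.0915, edgeR adjusted p = 0.0343), with the P19 knockdown at 164 CPM against 133 to 143 CPM in the others. That Bmp4 call was lost when any of 6 of the 8 libraries was left out, namely the control of P16, P18 or P19 or the knockdown library of P16, P17 or P18 (log2 fold change -0.27 to -0.23, edgeR adjusted p = 0.0589 to 0.101). Smad7 (log2 fold change -0.22, edgeR adjusted p = 0.456) and Inhba (0.13, 0.341) did not pass, and both passed with the batch as a block (edgeR adjusted p = 0.00918 and 0.0491). Id2 (-0.19, edgeR adjusted p = 0.352) and Bmp2 (-0.02, 0.987) did not pass.

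Angiotensin II itself was compared with no treatment. None of the 10 genes passed in control cells or in long knockdown, where 0% of the genes tested were called in each comparison, and 156 and 174 genes had an unadjusted p under 0.05. DESeq2 called 1 gene in control cells and 0 in long knockdown, and none of the 10. In control cells the absolute log2 fold change was at most 0.114 for the genes other than Bmp2, with standard errors between 0.0785 and 0.667 over all 10. In long knockdown it was at most 0.281, for Grem1 (SE 0.338). The interaction, which asks whether the knockdown effect differed between angiotensin II and no treatment, also called 0% of genes, with 166 at an unadjusted p under 0.05 and 1 called by DESeq2. Its value was largest for Grem1 (log2 difference -0.40, SE 0.458) and was -0.14 (SE 0.138) for Id1, -0.04 (SE 0.528) for Bambi and 0.02 (SE 0.146) for Id3.

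**Figure D3:**
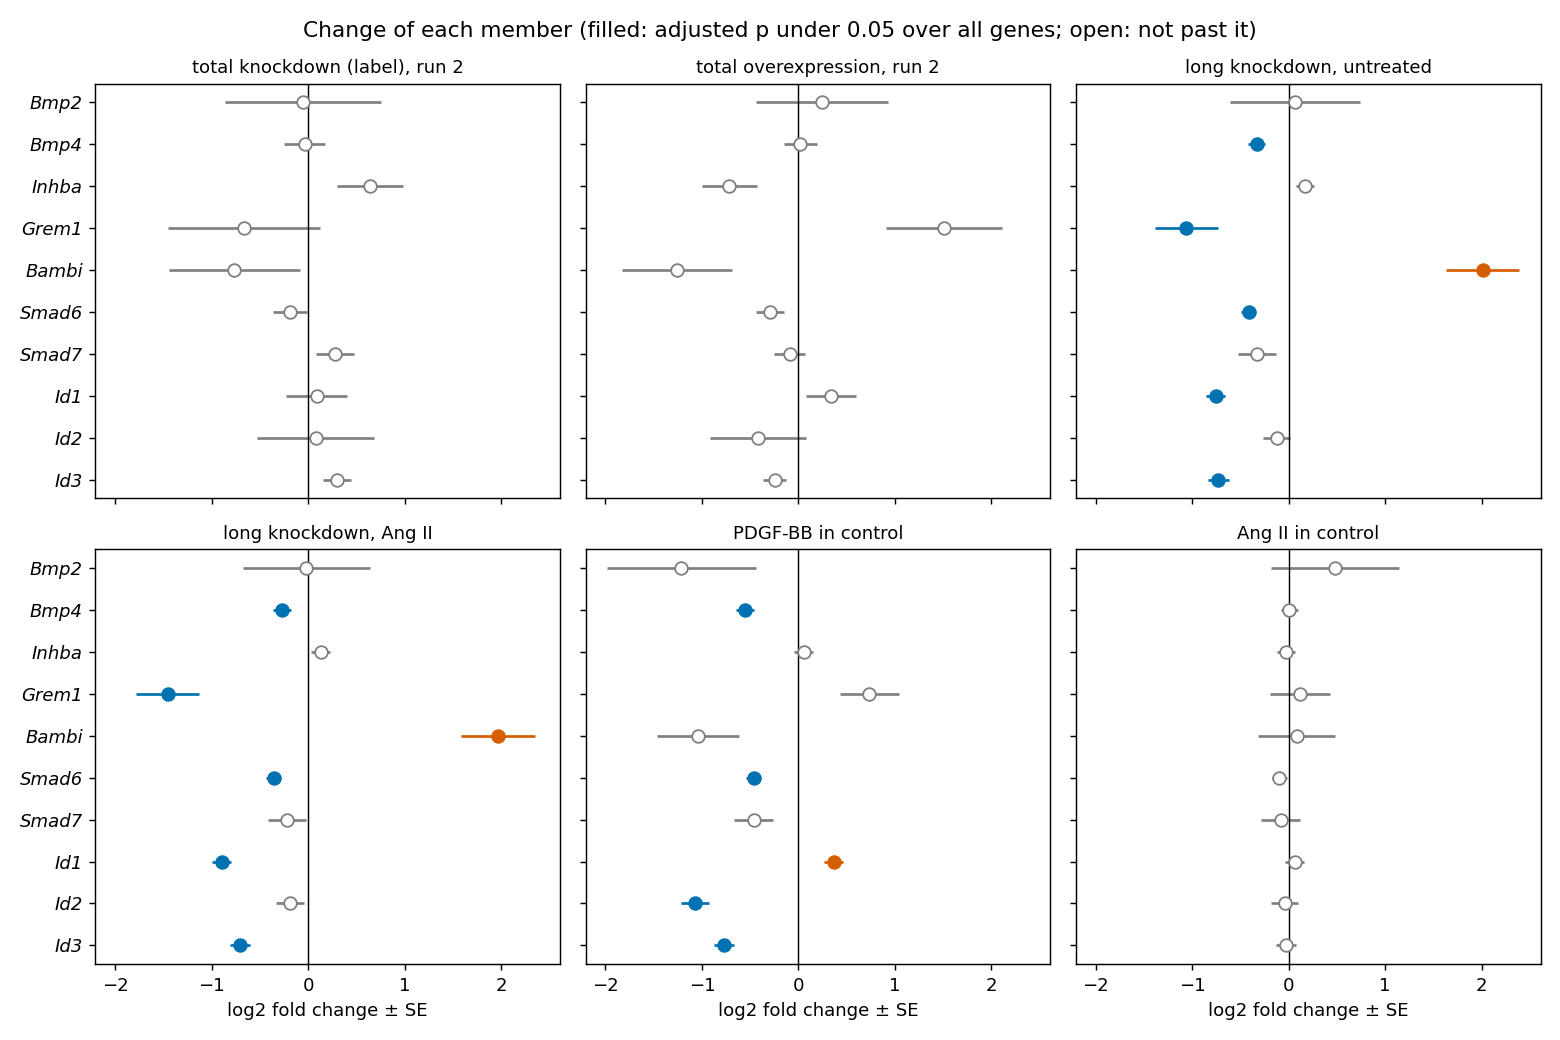
Log2 fold change ± SE of the 10 genes in 6 comparisons, from edgeR's quasi-likelihood fit. Filled points passed an adjusted p of 0.05 over all genes (orange higher, blue lower) and open points did not. Both long knockdown panels show 1 filled point above 0 and 5 below, PDGF-BB shows 1 above and 4 below, and the run 2 and angiotensin II panels show none.

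The last comparison in run 3 set control cells given PDGF-BB, a mitogen for smooth muscle, against untreated ones. Bmp4, Id2, Id3 and Smad6 fell and Id1 rose, so 5 of the 10 genes passed, where 43.6% of all genes were called. Without P19, 8 of the 10 passed, with Bambi, Grem1 and Smad7 added, where 48.9% of all genes were called, and DESeq2 with all batches also called 8 of the 10, where it called 45.0% of all genes. The median log2 fold change was -0.508 over the 10 genes and -0.0168 over all genes. Mki67 was higher under PDGF-BB in all 4 batches (log2 ratios 2.85 to 4.69), and of the 4 fibroblast markers tested 1 rose and 3 fell (summed level 2994 to 4216 CPM against 3414 to 3890 CPM). Of 7 smooth muscle markers tested, 1 rose and 1 fell (summed level 196.2 to 219.5 CPM against 241.5 to 275.8 CPM), of 2 endothelial markers 1 fell, Pecam1 (summed level of 6 markers 0.356 to 1.05 CPM against 1.25 to 2.76 CPM), and of 2 epithelial markers 1 rose, Cdh1 (summed level of 4 markers 156.5 to 199 CPM against 97.6 to 129 CPM). Their part in the values below was not tested. The untreated controls are the same libraries that served the comparisons with long knockdown and angiotensin II, so the values are given side by side and were not tested against each other.

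Id1 and the other ID genes moved in opposite directions. Id1 was at 70.5, 78.5, 73.3 and 63.7 CPM without and at 99.6, 90.3, 97.1 and 80.8 CPM with PDGF-BB, in P16 to P19. All treated libraries were above all untreated ones, and Id1 rose 1.29-fold (log2 fold change 0.36, SE 0.096, edgeR adjusted p = 0.00433). Id2 under PDGF-BB was at 39.7, 38.9, 39.2 and 29.7 CPM, far below the 67.3 to 85.1 CPM without it. It fell to 47.6% (log2 fold change -1.07, SE 0.145, edgeR adjusted p = 8.31e-06). Id3 under PDGF-BB was at 112, 107, 111 and 82.4 CPM against 157 to 196 CPM without it. It fell to 58.6% (log2 fold change -0.77, SE 0.104, edgeR adjusted p = 6.05e-06), with no overlap between groups.

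Ratios within a library, which do not depend on scaling, restate these moves as a description. The log2 ratio of Id1 to Id3 was -1.3 ± 0.0547 in untreated controls and -0.158 ± 0.0927 under PDGF-BB (SD, n = 4 each), a 2.2-fold shift. That of Id1 to Id2 went from -0.116 ± 0.207 to 1.32 ± 0.0929, a 2.71-fold shift, and that of Id2 to Id3 from -1.18 ± 0.251 to -1.48 ± 0.0165. In untreated long knockdown the Id1 to Id3 ratio was -1.33 ± 0.17, a difference from control of -0.0321, whereas the difference was -0.619 for the Id1 to Id2 ratio and 0.587 for the Id2 to Id3 ratio. Under angiotensin II the knockdown differed from control by -0.186 in the Id1 to Id3 ratio, -0.684 in Id1 to Id2 and 0.498 in Id2 to Id3. Two-sided exact permutation tests of the 9 differences were run after the levels had been seen and over libraries as if unpaired by batch, so they are no independent support. They gave p = 0.0286, the smallest that 4 against 4 libraries allow (0.0367 after Benjamini-Hochberg adjustment), except for Id2 to Id3 under PDGF-BB (exact permutation p = 0.0571, adjusted 0.0643) and Id1 to Id3 in untreated long knockdown (0.743, adjusted 0.743).

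**Figure D4:**
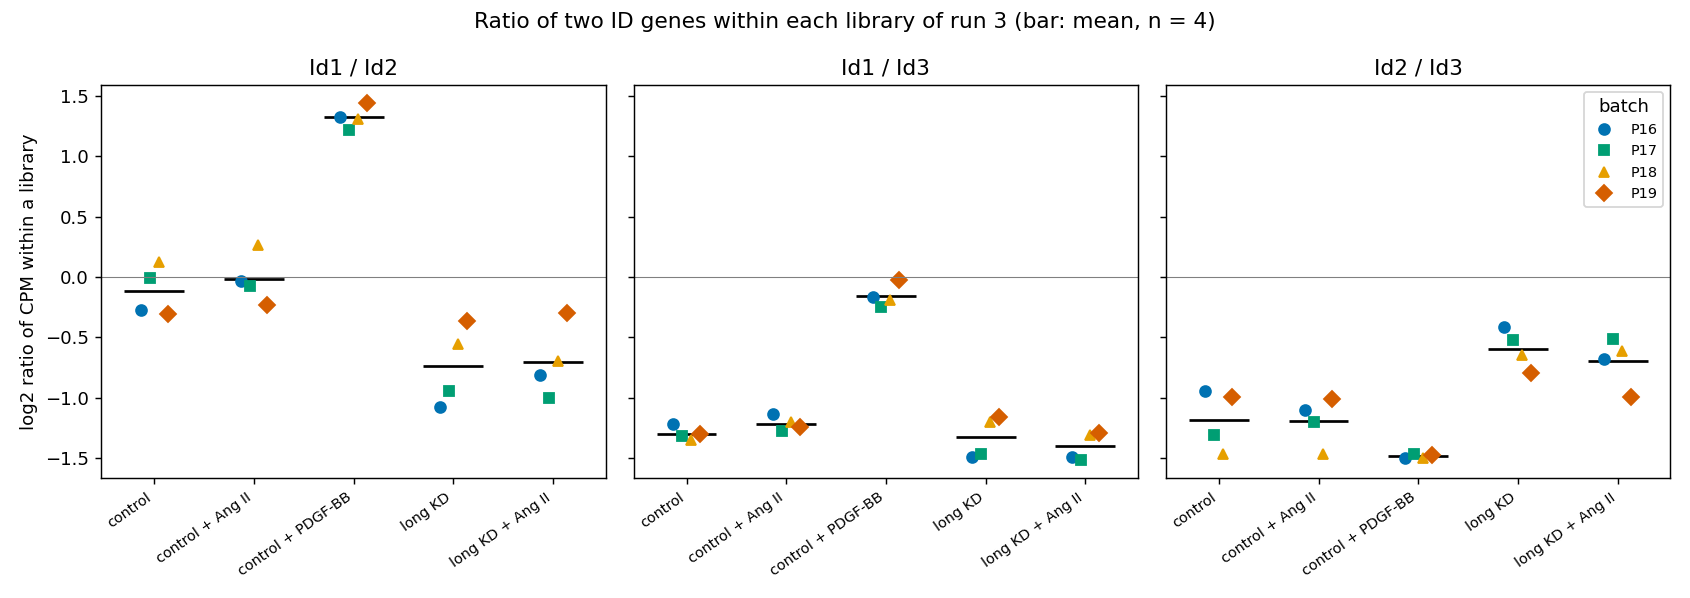
Log2 ratio of the CPM of Id1 to Id2, Id1 to Id3 and Id2 to Id3 within each library of run 3, by group, with the group mean as a bar (n = 4). The Id1 to Id3 ratio averages -1.4 to -1.21 in every group except PDGF-BB, where it is -0.158, and the Id1 to Id2 ratio is highest under PDGF-BB and lowest in the knockdown groups.

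Bmp4 was at 127, 120, 127 and 99.5 CPM under PDGF-BB, below the 168 to 179 CPM of untreated controls. It fell to 68.2% (log2 fold change -0.55, SE 0.0917, edgeR adjusted p = 6.48e-05). Smad6 was at 35.4, 35.8, 29.7 and 32.2 CPM against 42.4 to 48.8 CPM, and fell to 72.5% (log2 fold change -0.46, SE 0.0789, edgeR adjusted p = 8.22e-05). Smad7 was at 92.4, 91.8, 86.8 and 52.8 CPM under PDGF-BB, lower than the control of the same batch in all 4 by a narrow range of log2 ratios, -0.501 to -0.428. It did not pass (log2 fold change -0.46, SE 0.2, edgeR adjusted p = 0.0707) and passed with the batch as a block (-0.47, edgeR adjusted p = 7.02e-07). Its P19 library was the lowest of each of the 5 groups of run 3.

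Bambi was at 1.74, 1.08, 1.58 and 1.43 CPM under PDGF-BB, with 21 to 31 counts per library, against 2.71 to 3.34 CPM without it. The groups did not overlap, yet the change missed the threshold (log2 fold change -1.04, SE 0.424, edgeR adjusted p = 0.0555) and passed with the batch as a block (-1.08, edgeR adjusted p = 0.00809). Grem1 was at 13.5, 17.5, 17.8 and 10.1 CPM against 9.83, 9.8, 11 and 4.94 CPM, higher in each batch by 0.45 to 1.02 on the log2 scale. It did not pass with or without the block (log2 fold change 0.73, SE 0.306, edgeR adjusted p = 0.0601 without, 0.0811 with it), and passed when P19 was left out (0.67, edgeR adjusted p = 0.00149). Inhba was at 304.5 to 354 CPM against 278 to 348 CPM and did not pass (log2 fold change 0.05, SE 0.0955, edgeR adjusted p = 0.678). Bmp2 had 1, 0, 8 and 1 counts under PDGF-BB against 5 to 10 without it (log2 fold change -1.21, SE 0.774, edgeR adjusted p = 0.216). Without the P18 library under PDGF-BB, which held those 8 counts, the value was -2.94 (edgeR adjusted p = 0.0153).

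In run 2, none of the 10 genes passed in the fit without a block, either in a CASC15 comparison or between the controls. The libraries labelled total knockdown were compared with their GapmeR controls, where 2.07% of 15350 genes were called. Inhba was at 111 and 108 CPM in controls of P17 and P18 and at 156 and 185 CPM in the labelled knockdown (log2 fold change 0.64, SE 0.346, edgeR adjusted p = 0.506). Id3 was at 68.7 and 71.3 against 81.7 and 90.5 CPM (log2 fold change 0.30, SE 0.144, edgeR adjusted p = 0.43). Smad7 was at 55 and 61.5 against 64.7 and 76.6 CPM (log2 fold change 0.28, SE 0.196, edgeR adjusted p = 0.644). Bambi was at 14.7 and 12.7 CPM in controls and at 10.9 and 5.24 CPM in the labelled knockdown, with the log2 fold change furthest from 0 of the 10 genes (-0.76, SE 0.677, edgeR adjusted p = 0.727), and Grem1 was at 1.83 and 1.88 against 1.4 and 0.941 CPM (-0.66, SE 0.787, 0.813). The groups of these 5 genes did not overlap, and those of the other 5 did. How many of all genes separate in this way with 2 libraries each was not counted, so nothing is read from it. The macrophage-associated gene Cd68 was at 15.8 ± 0.181 CPM in these libraries labelled knockdown against 0.43 ± 0.23 CPM in controls, and the summed level of 5 leukocyte markers was 16.9 and 20.7 against 0.49 and 0.79 CPM. Both leukocyte markers that could be tested rose, Cd68 and Csf1r, the latter to a mean of 2.89 CPM, while Itgam, Adgre1 and Ptprc had group means of at most 0.136, 0.0224 and 0.0673 CPM. Of 7 smooth muscle markers 1 rose, Myh11, and 0 fell (summed level 195.5 and 214.1 CPM against 175 and 195.4 CPM). No marker passed in the other lists, with summed levels of 6.02 and 10.1 against 2.81 and 3.9 CPM (endothelial), 72.5 and 95.5 against 44.2 and 45.1 CPM (epithelial) and 2605 and 2745 against 2927 and 2962 CPM (fibroblast). Mki67 was higher in both batches, at log2 ratios of 1.28 and 1.76. The part of these shifts in the values was not tested.

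Libraries with total CASC15 overexpressed were set against the control plasmid, where 1.65% of genes were called. The values of Grem1 and Bambi lay furthest from 0. Grem1 was at 3.47, 6.27 and 1.87 CPM in plasmid controls of P17 to P19 and at 6.49, 21.8 and 4.88 CPM with overexpression, higher in each batch by 0.885 to 1.78 on the log2 scale. Bambi was at 11.9, 4.57 and 16.5 CPM in controls and at 2.8, 2.63 and 8.31 CPM with overexpression, lower in each batch at log2 ratios of -2.06 to -0.773. The groups of each gene overlapped, since batches differed as well. Inhba was at 121, 112 and 51.7 CPM in controls and at 57, 70.1 and 46.5 CPM with overexpression. Mki67 was higher with overexpression in all 3 batches (log2 ratios 0.667 to 0.954), and the summed level of 4 epithelial markers was 66.4 to 150.2 CPM against 44.6 to 64.1 CPM, though no marker of any cell type list passed. Their part in the values was not tested. Without a term for batch the log2 fold changes were 1.51 (SE 0.598, edgeR adjusted p = 0.276) for Grem1, -1.26 (SE 0.567, 0.344) for Bambi and -0.72 (SE 0.285, 0.28) for Inhba. With the batch as a block, 4 of the 10 genes passed, where 17.7% of all genes were called: Grem1 (1.43, edgeR adjusted p = 0.0229), Bambi (-1.31, 0.00833), Inhba (-0.65, 0.023) and Id1 (0.30, 0.0391). For Id1 the fold change of the fit without the block went from 0.34 to -0.036 on the log2 scale when the P19 overexpression library was left out. Single libraries also moved the unblocked values of Grem1, to 0.56 without the P18 overexpression library, and of Bambi, to -2.02 without that of P19, with log2 fold changes of 0.56 to 2.03 and -2.02 to -0.85 over all 6 libraries left out in turn. The call of Inhba also appeared without the block when the P19 plasmid control was left out (-1.01, edgeR adjusted p = 0.0101).

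Id2 was at 62.1, 40.8 and 13.9 CPM in plasmid controls and at 36.1, 36.2 and 15.3 CPM with overexpression, so that the lowest value of each group was in P19 (log2 fold change -0.42, SE 0.5, edgeR adjusted p = 0.75). Id1 was highest in P19, at 47.5 and 67.1 CPM against 30.9 to 36 CPM in the other libraries of these groups. Bmp4 differed between the groups by 0.02 on the log2 scale (SE 0.174, edgeR adjusted p = 0.978), Smad6 by -0.29 (SE 0.146, 0.392) and Smad7 by -0.09 (SE 0.16, 0.843). Between the plasmid and the GapmeR controls, 1.18% of all genes were called and none of the 10. Their log2 differences ran from -0.48 for Bmp2 to 1.06 for Grem1. Of these controls, only those with the plasmid held a P19 library. With the batch as a block, the difference was -0.0027 for Bmp2 and 1.33 for Grem1, and that of Bambi went from -0.32 to -0.92.

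**Figure D5:**
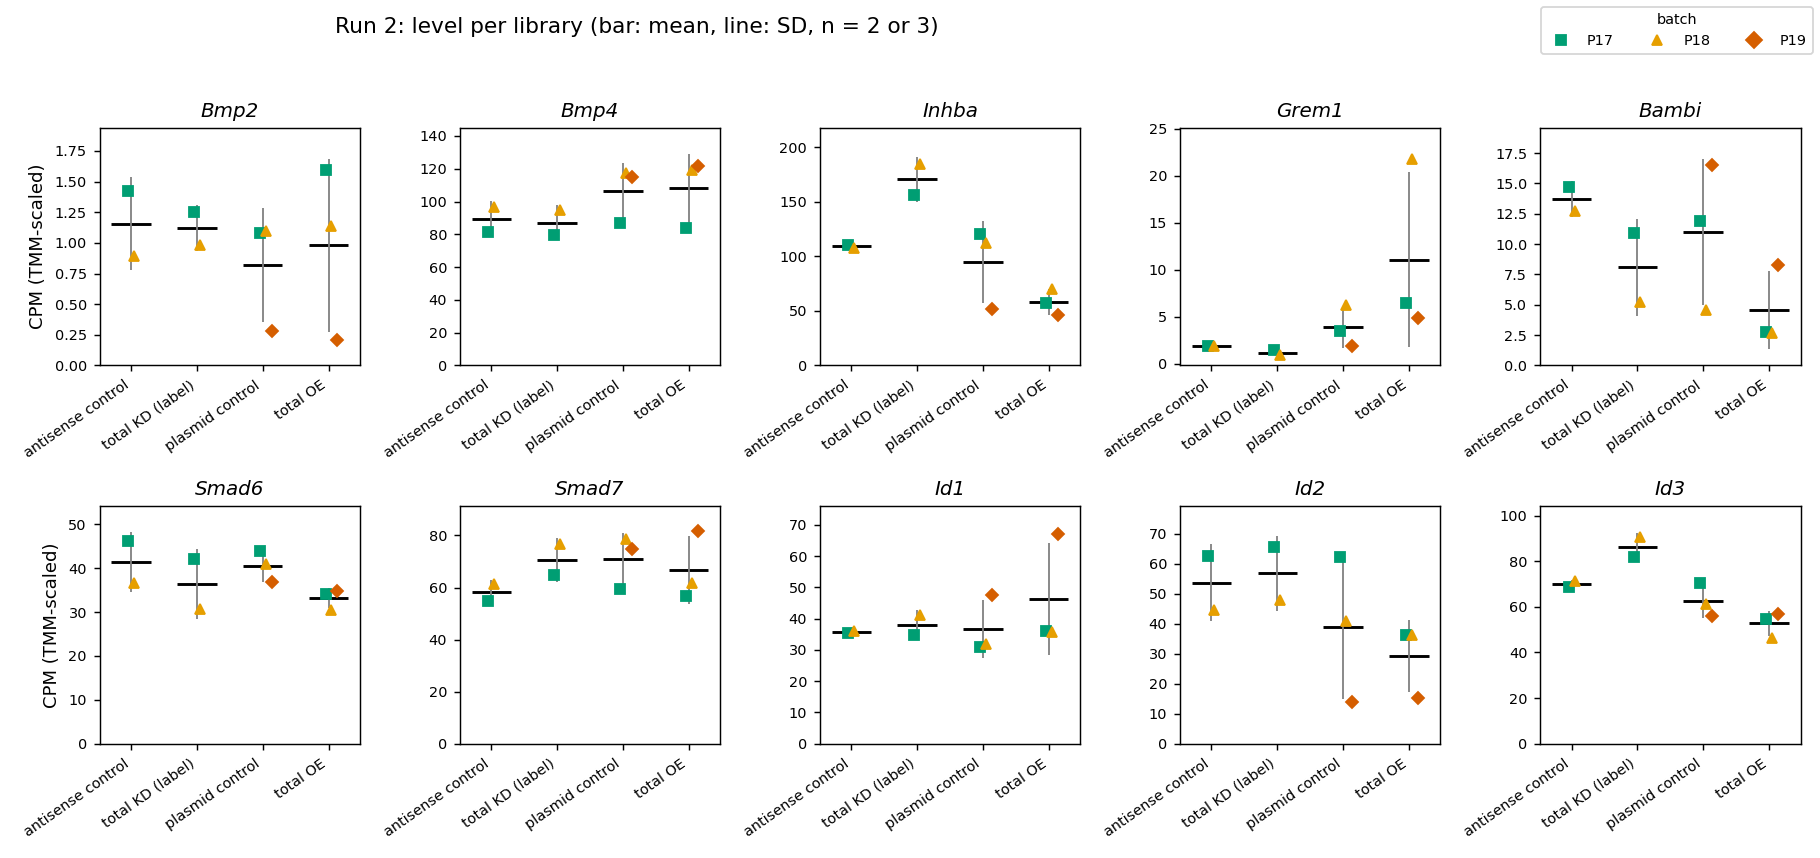
Level of each of the 10 genes in the 10 libraries of run 2, in TMM-scaled CPM on a linear axis for each gene. Points are libraries coloured by batch, bars group means and vertical lines SD (n = 2 for the antisense control and the labelled total knockdown, 3 for the plasmid groups). In the plasmid groups the P19 libraries lie at the low end for Id2 and Bmp2 and at the high end for Id1 and Bambi.

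Other genes of the pathway were counted from lists by role, in which the 10 genes are included. Their counts stand beside 25.0% of all genes called in untreated long knockdown and 43.6% under PDGF-BB, and nothing particular to a list is read from them. In long knockdown the share called was above that of all genes in each of the 7 lists. Under PDGF-BB it was above it for ligands, ID and E proteins and other targets, near it for receptors and SMAD genes, and below it for antagonists and activin signalling. The lists held only 3 to 11 tested genes and were chosen with earlier results known, so these shares are no independent support. Of 9 secreted antagonists and modulators tested, 5 fell and 0 rose in untreated long knockdown, with a median log2 fold change of -0.409. Besides Grem1, the rule for named genes picked Fst, the activin-binding follistatin gene, which fell from 18 ± 2.97 to 10.7 ± 3.18 CPM (SD, n = 4; log2 fold change -0.75, SE 0.218, edgeR adjusted p = 0.0155). Under PDGF-BB 1 of the 9 rose and 2 fell. Bmper, a BMP-binding modulator, rose from 9.93 ± 1 to 16.1 ± 1.38 CPM (log2 fold change 0.70, edgeR adjusted p = 0.00564), and Crim1, a transmembrane BMP-binding protein gene, fell from 490.2 ± 42.5 to 303 ± 18.6 CPM (-0.69, 0.000284).

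Of 6 BMP and GDF ligand genes tested, 2 fell in long knockdown, Bmp4 and Bmp8a. Bmp8a rose under PDGF-BB, from 1.49 ± 0.339 to 4.12 ± 0.892 CPM (log2 fold change 1.47, edgeR adjusted p = 0.000107), and was at 0.751 ± 0.302 CPM in long knockdown (-0.98, 0.0144), where the log2 ratio was -0.0574 in P19 against -1.5 to -1.01 in the other batches. PDGF-BB raised 2 and lowered 2 of these 6. Of 9 receptor and co-receptor genes, 3 rose and 1 fell in long knockdown, and 0 rose and 4 fell under PDGF-BB. The co-receptor gene Rgma was at 11.6 ± 2.13 CPM in untreated controls, rose to 18.6 ± 3.8 CPM in long knockdown (log2 fold change 0.69, edgeR adjusted p = 0.00677) and fell to 6.47 ± 0.804 CPM under PDGF-BB (-0.83, 0.00112). Acvr2b, a type II activin and BMP receptor gene, had log2 fold changes of 0.63 (edgeR adjusted p = 0.0142) and -0.72 (0.00463) in those comparisons.

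Of 11 SMAD genes and intracellular regulators, 1 rose and 4 fell in long knockdown, and 0 rose and 5 fell under PDGF-BB. Smad9, a signal-carrying SMAD of the BMP branch, fell from 11.5 ± 1.18 to 3.91 ± 0.477 CPM under PDGF-BB (log2 fold change -1.55, SE 0.132, edgeR adjusted p = 1.43e-08) and to 8.36 ± 0.821 CPM in long knockdown (-0.46, 0.0107). Of 6 genes of ID and E proteins, 1 rose and 3 fell in long knockdown, and again 1 rose and 3 fell under PDGF-BB. Tcf12 encodes an E protein, a binding partner of the ID proteins. It fell from 157 ± 4.73 to 62 ± 11.7 CPM in long knockdown, in all 4 batches (log2 fold change -1.35, SE 0.0968, edgeR adjusted p = 6.38e-09), and to 56.7 ± 6.64 CPM under angiotensin II. Under PDGF-BB it was at 160 ± 1.14 CPM (log2 fold change 0.03, edgeR adjusted p = 0.85).

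Only 3 of 8 other textbook BMP target genes were tested, of which 0 rose and 1 fell in long knockdown, and 1 rose and 2 fell under PDGF-BB. Atoh8 fell from 148 ± 5.26 to 82.3 ± 6.84 CPM in long knockdown (log2 fold change -0.85, SE 0.0748, edgeR adjusted p = 9.8e-08) and to 89.1 ± 9.9 CPM under PDGF-BB (-0.74, 1.5e-07). Hey2, a repressor also driven by Notch, fell from 4.59 ± 0.826 to 1.57 ± 0.646 CPM under PDGF-BB (-1.55, edgeR adjusted p = 0.00355). The gene that rose, named after its values were seen, was Runx2, a transcription factor of bone formation, from 31.9 ± 1.82 to 46.4 ± 3.28 CPM (0.54, edgeR adjusted p = 1.43e-05). Of 7 genes of activin and inhibin signalling, 1 rose and 2 fell in long knockdown, and 0 rose and 2 fell under PDGF-BB. Inhbb, the activin B subunit gene, fell from 66.4 ± 5.88 to 48.6 ± 6.17 CPM in long knockdown (log2 fold change -0.45, edgeR adjusted p = 0.0222) and to 37.9 ± 8.71 CPM under PDGF-BB (-0.81, 0.000112), while Inhba did not pass in either. In P19 the log2 ratio of Inhbb in untreated long knockdown was -0.0825, against -0.662 to -0.475 in the other batches. Tgfbr3, the betaglycan co-receptor gene, fell in long knockdown (-0.41, 0.00589), and Acvr1b, a type I activin receptor gene, fell under PDGF-BB (-0.33, 0.0276). In the fits of run 2 without a block, no gene of these lists passed in either CASC15 comparison. There 2.07% (labelled total knockdown) and 1.65% (overexpression) of all genes were called. With the batch as a block, Grem1, Bambi, Inhba and Id1 passed with overexpression, as given above.

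Bambi and Grem1 varied most over the 9 groups, over ranges of 2.87 and 2.84 in group means of log2 CPM centred within each run. Among 9959 genes, the profile nearest to Bambi was that of Col27a1, with a root mean square difference of 0.184 on the log2 scale over the 9 groups, then Tshz2 (0.234) and Ces1d (0.262). Col27a1 was at 3.61 ± 1.08 CPM in untreated controls of run 3 and 15.6 ± 7.33 CPM in untreated long knockdown. Nearest to Grem1 were Cd55 (0.262), Gpr176 (0.34) and Ctps (0.348). Cd55 was at 645 ± 49.3 CPM in those controls and 321 ± 59.6 CPM in the knockdown. The groups share batches and libraries within a run, so likeness is a description only.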

How the data were processed

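Expected counts for each gene were deposited, made by the authors with STAR 2.7.11b and RSEM 1.3.1, per the submitters' processing notes. These notes list the builds GRCm39 and mm10 without a role, and the annotation and strand setting are not given in the sources used here. Counts were rounded (5.00% of values were not whole). Symbols and exon lengths came from GENCODE M21, and 98.7% of counts had a symbol. Genes passed edgeR's filterByExpr (minimum count 10, total 15), all 10 among them. Each run was scaled by TMM and fitted with edgeR 4.0.16 in R 4.3.3 (quasi-likelihood, robust, all groups of a run together), with Benjamini-Hochberg adjustment and a call at 0.05. Named genes were the 10, the 2 with the largest called change in each list under PDGF-BB and in untreated long knockdown (mean CPM at least 1), and the 3 nearest profiles of the 2 most variable genes (mean CPM at least 5). Genes and lists were chosen with earlier results of these data known.

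The labels' batch, which runs with the replicate number, pairs libraries. Deviations from group means correlated on average at 0.184 to 0.499 within a batch in the CASC15 and PDGF-BB comparisons. The batch as a block was an alternative, beside DESeq2 1.42.0, RLE scaling, other filters, only the groups compared and each library left out. Leaving out P19, the ID ratios and the GTCTAGAC motif were added after seeing the data. Some fits were also run on counts simulated without a batch effect, and no support is drawn from them here. No library repeated another of its own group (chi-square per degree of freedom 4.22 to 74.6 over 38 pairs). Pairs across groups were not compared.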

Additional observations from a re-analysis of the deposited data

Results flagged for a closer look

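Among 50 sets of 4 libraries (10 genes in 5 groups of run 3), 8 held a library far from the other 3, where chance gives about 1 in 20. The sets share libraries and batches and are not independent, so the excess over that rate was not tested. For Smad7 the P19 library was lowest in 3 groups: 74.8 CPM in untreated controls against 122 CPM for the nearest, 75.7 against 113 CPM in controls with angiotensin II, and 52.8 against 86.8 CPM under PDGF-BB. Under PDGF-BB the P19 library was also lowest for Id2 (29.7 against 38.9 CPM) and Id3 (82.4 against 107 CPM). Grem1 was highest in the P19 library of untreated long knockdown, at 7.005 against 3.48 CPM for the nearest. Outside P19, Bmp2 was highest in the P18 library under PDGF-BB (0.421 against 0.0561 CPM), and Inhba was highest in the P17 library under PDGF-BB (353.7 against 312 CPM).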

How the results depend on the processing

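Over 7 alternative settings beside leaving out single libraries, the number of the 10 genes called in long knockdown was 5 to 8 in untreated cells and 6 to 8 under angiotensin II, against 6 in each. The 8 came with the block, where 40.6% and 41.3% of all genes were called. The 5 came without a filter on low counts, where Grem1 had an edgeR adjusted p of 0.0689 and 9.34% of all genes were called. For angiotensin II, the interaction and the comparison of controls it was 0 under each setting run. Under PDGF-BB, 8 were called by DESeq2 and 8 without P19, against 5, where 45.0% and 48.9% of all genes were called. For the labelled total knockdown, 1 gene was called without a filter (Inhba, edgeR adjusted p = 0.00982), 1 with only the groups compared (Inhba, 0.0202) and 1 without P19 (Inhba, 0.0254), against 0, where 4.44%, 7.34% and 6.86% of all genes were called. That comparison holds no P19 library, so leaving P19 out changed only what its fit shares with the plasmid groups, such as the estimate of spread. For overexpression, 3 were called without a filter (Grem1, Bambi and Inhba), 4 with the batch as a replicate block and 1 without P19 (Inhba, edgeR adjusted p = 0.00913), against 0, where 4.56%, 17.7% and 5.57% of all genes were called. The block changed no other call of the 10 genes than those given with the results. Leaving out 1 library gave 5 to 6 calls in each run 3 comparison with calls, 0 to 1 for overexpression (1 without the P19 plasmid control) and 0 elsewhere. In the same fits of long knockdown, 2889 to 4882 of all genes were called in untreated cells and 3042 to 4880 under angiotensin II. For PDGF-BB it was 5601 to 6624 of all genes, and for overexpression without the P19 plasmid control 867 of 15238.

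Directions turned only for values that had not passed edgeR's test in the fit without a block. Without P19 the log2 fold change of Bmp4 with overexpression was -0.011, that of Bmp2 was -0.45 in untreated long knockdown and 0.10 under angiotensin II. Between the controls, Id1 went from 0.039 to -0.20 (-0.24 with the block), Smad6 from -0.027 to 0.035 and Inhba from -0.20 to 0.086 without P19. For angiotensin II in control cells Id3 went from -0.026 to 0.012 and Id2 from -0.043 to 0.00054 without P19, and Bmp4 from 0.0079 to -0.0017 without a filter. In long knockdown Id3 went from -0.0035 to 0.0040 without a filter. In the interaction Bmp2 went from -0.084 to 0.55 and Id3 from 0.023 to -0.021 without P19, and Bambi from -0.041 to 0.036 with the block. With 1 library left out, values for the labelled total knockdown ranged from -0.36 to 0.32 for Bmp2, -0.17 to 0.089 for Bmp4, -0.045 to 0.20 for Id1, -0.17 to 0.34 for Id2 and -0.44 to 0.022 for Smad6. Those for overexpression ranged from -0.32 to 0.72 for Bmp2, -0.11 to 0.17 for Bmp4, -0.036 to 0.57 for Id1, -0.82 to 0.087 for Id2 and -0.27 to 0.016 for Smad7. Bmp2 ranged from -0.26 to 0.40 in untreated long knockdown and from -0.57 to 0.26 under angiotensin II. The cause was not tested.

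Counts over all genes moved as well. For the labelled total knockdown (317 called) they were 719 by DESeq2, 1325 without a filter, 190 among genes of 1 CPM or more on average, 2209 with the block, 1079 with only the groups compared and 1041 without P19. For overexpression (253) they were 807, 1363 and 2721 by DESeq2, without a filter and with the block, 66 with only the groups compared and 844 without P19. Between the controls (181) they were 347, 1106, 459 and 101 by DESeq2, without a filter, with the block and with only the groups compared. In long knockdown they were 6126 with the block and 6062 without P19 in untreated cells (3783), and 6238 and 6049 under angiotensin II (4033). Under PDGF-BB (6586) they were 6793 by DESeq2, 8238 with the block and 7409 without P19. For angiotensin II in control cells and for the interaction, DESeq2 and the fit of only the groups compared each called 1 gene, against 0. With 1 library left out, the labelled total knockdown had 4 to 188 genes called (4 and 13 without the GapmeR control of P17 or P18, 188 and 18 without the labelled library of P17 or P18), overexpression 86 to 867 (most without the P19 plasmid control, fewest without the P18 overexpression library) and the controls 67 to 277. Depth limits Bmp2, with 0 to 17 counts per library in run 3; at a minimum of 1 CPM on average it was not tested.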
